A study of Homo sapiens with 3 samples.

Results

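The aryl hydrocarbon receptor gene AHR, its dimerisation partner ARNT, the feedback genes AHRR and TIPARP, and the target enzymes CYP1A1, CYP1B1, ALDH3A1, UGT1A6 and UGT1A7 were followed in KYSE510 cells that received hairpins directed at the transcript TCONS_02256997. The 9 genes were found by symbol among the 19266 genes of each deposited table, and all 9 were among the 13580 genes that passed the low-count filter, CYP1A1 by way of its sh1 libraries. They were selected on the rise of CYP1A1 with hairpin 1, so that rise is described and carries no test, and the other genes were listed for their known place in the pathway. KYSE510 is an established human line of esophageal squamous cell carcinoma. All groups were grown in RPMI-1640 with 10% serum, exposed for 24 h to lentivirus and kept for 48 h at 4 µM puromycin. The control group received a scrambled hairpin, sh1 received hairpin 1 and sh2 received hairpin 2 against the same transcript. Each group was 1 sample with 3 numbered tables, treated here as 3 libraries. The labels do not state if these were cultures, libraries or repeat runs, so every SD and p-value reflects the spread between tables, which may be technical. The series states a screen for potential targets of the transcript, and the transcript's own level was not analysed here, so the effect of either hairpin on its target was not checked.

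The receptor is a ligand-activated transcription factor of the bHLH-PAS family. It waits in the cytoplasm in a complex with HSP90 chaperones and PTGES3, and after binding a ligand it enters the nucleus, pairs with ARNT and binds DNA elements whose core reads GCGTG. CYP1A1 is its classical target in epithelial cells, AHRR and TIPARP are targets that feed back on the receptor, and the CYP1 oxidases, ALDH3A1 and UDP-glucuronosyltransferases process foreign compounds and endogenous aromatic ones.

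Levels are given as CPM (counts relative to library size, after TMM scaling) when one gene is compared across libraries, and as TPM (scaled also for gene length) when genes are compared with each other. Total expected counts were 14660821 to 16092417 per library, and 3 counts, taken as the floor of detection, equal 0.186 to 0.205 CPM. The tables of a sample differed by more than sampling noise (chi-square per gene 1.41 to 2.44). Of the 10 squamous markers none was at 0 in any group. Their summed level was 6480 to 6562 CPM in control, 4030 to 4108 with sh1 and 5375 to 5540 with sh2. With sh1, 8 of the 10 fell and 1, SOX2, rose (by 1.26 on the log2 scale), and with sh2 5 fell and 3 rose. Among all genes tested, 34.6% fell with sh1 and 34.3% with sh2. The marker levels differ between the same groups as the changes below, and their part in those changes was not tested. In bulk RNA, fewer cells of a kind and less RNA per cell cannot be told apart. Summed fibroblast markers (6 genes) were 48.2 to 50.9 CPM in control, 53.8 to 60.0 with sh1 and 66.8 to 70.0 with sh2. Nearly all of this sum was 1 gene, COL1A1, at means of 49.6, 55.4 and 68.2 CPM in control, sh1 and sh2. In control the other 5 were under 3 counts in every library. Leukocyte markers (5 genes) summed to 7.92 to 11.3 CPM and endothelial markers (3 genes) to 12.9 to 20.4 CPM over all libraries. Of the 5 hepatocyte markers, ALB and TF were at 0 in all groups and the summed level was 0.406 to 1.29 CPM over the 9 libraries.

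The promoters of the members that hold the receptor's core motif are shown because the comparison asks whether genes with a known receptor link moved with CYP1A1. The sequences are the 250 bases before the start site, from RefSeq on GRCh38.p14, a build other than the hg19 that the submitters' processing notes name, and capitals mark GCGTG on the gene's strand or CACGC, the same motif on the opposite strand. The windows lie at chr15:74725529-74725778 (CYP1A1, minus strand), chr5:321464-321713 (AHRR, plus), chr3:156674340-156674589 (TIPARP, plus), chr2:233691452-233691701 (UGT1A6, plus) and chr2:233681651-233681900 (UGT1A7, plus).
CYP1A1: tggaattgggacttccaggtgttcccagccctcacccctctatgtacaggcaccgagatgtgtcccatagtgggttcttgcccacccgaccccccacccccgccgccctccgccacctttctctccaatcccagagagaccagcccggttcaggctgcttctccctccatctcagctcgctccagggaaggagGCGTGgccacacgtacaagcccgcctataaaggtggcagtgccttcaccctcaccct
AHRR: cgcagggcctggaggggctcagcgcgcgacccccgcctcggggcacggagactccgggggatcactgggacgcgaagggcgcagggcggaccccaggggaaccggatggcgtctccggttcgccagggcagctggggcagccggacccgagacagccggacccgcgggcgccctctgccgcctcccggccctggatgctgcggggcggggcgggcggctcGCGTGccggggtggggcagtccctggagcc
TIPARP: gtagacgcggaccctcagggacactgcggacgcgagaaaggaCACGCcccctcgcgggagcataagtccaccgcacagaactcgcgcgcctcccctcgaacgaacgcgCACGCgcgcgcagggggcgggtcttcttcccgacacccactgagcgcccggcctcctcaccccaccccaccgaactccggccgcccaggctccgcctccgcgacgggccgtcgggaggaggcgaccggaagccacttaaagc
UGT1A6: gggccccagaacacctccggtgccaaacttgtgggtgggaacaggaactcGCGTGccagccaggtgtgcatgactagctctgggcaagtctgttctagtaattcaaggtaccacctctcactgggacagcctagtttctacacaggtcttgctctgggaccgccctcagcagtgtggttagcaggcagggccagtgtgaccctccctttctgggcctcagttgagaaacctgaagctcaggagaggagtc
UGT1A7: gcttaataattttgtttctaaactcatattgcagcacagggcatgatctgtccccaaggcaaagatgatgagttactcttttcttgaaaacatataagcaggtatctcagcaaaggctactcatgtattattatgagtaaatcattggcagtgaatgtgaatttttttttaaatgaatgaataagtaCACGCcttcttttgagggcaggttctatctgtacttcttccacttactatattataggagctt
In the CYP1A1 window 1 core lies 57 to 53 bases upstream of the start, in AHRR 30 to 26 bases, in UGT1A7 63 to 59 bases and in UGT1A6 200 to 196 bases, while TIPARP holds 2, both on the opposite strand. Windows were available for 7 of the 9 members (not CYP1B1 and ALDH3A1), 11 windows in all, of which 6 held the core, in 5 members. AHRR has a second such window. The AHR and ARNT windows held none, nor did the further windows of TIPARP and UGT1A6, which are not shown. Among all 35116 windows of this length 32.2% held the core, and 36.2% of 27305 genes had it in at least 1 window. A match is a string of letters and not a bound site, and no match says only that the letters are not in the window. Of the 5 members shown, CYP1A1 was the one whose level was higher in every sh1 library than in every control library, as the values below give in full. It was chosen for that rise, so nothing about the motif is read from it.

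CYP1A1 (Entrez gene 1543), the oxidase that metabolises polycyclic aromatic compounds, was barely detected in control cells and was 17.3-fold higher with sh1. Control libraries held 5, 7 and 11 counts (0.325, 0.466 and 0.725 CPM), sh1 libraries 134, 122 and 137 counts (9.10, 8.26 and 9.30 CPM), and sh2 libraries 8, 6 and 10 counts (0.501, 0.373 and 0.639 CPM). Every sh1 library lay above every other library, and control and sh2 overlapped throughout. The log2 difference of sh1 from control was 4.12 ± 0.217 (SE, n = 3 libraries per group), and from sh2 it was 4.12 ± 0.214; both belong to the value by which the genes were chosen by design and are descriptions. With sh2 the pooled 24 counts against 23 in control gave a ratio of 0.995 with a 95% exact Clopper-Pearson interval of 0.538 to 1.84. The interval covers counting error only, and any ratio within it is compatible with these counts. In TPM, CYP1A1 stood at 0.483 ± 0.199 in the control group, 7.92 ± 0.551 in sh1 and 0.460 ± 0.120 in sh2 (mean ± SD, n = 3). In control it was lower than all but 2.42% of the genes tested, and with sh1 it lay above 26.9% of them, so that at its highest it remained in the lower part of the expressed range.

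**Figure D1:**
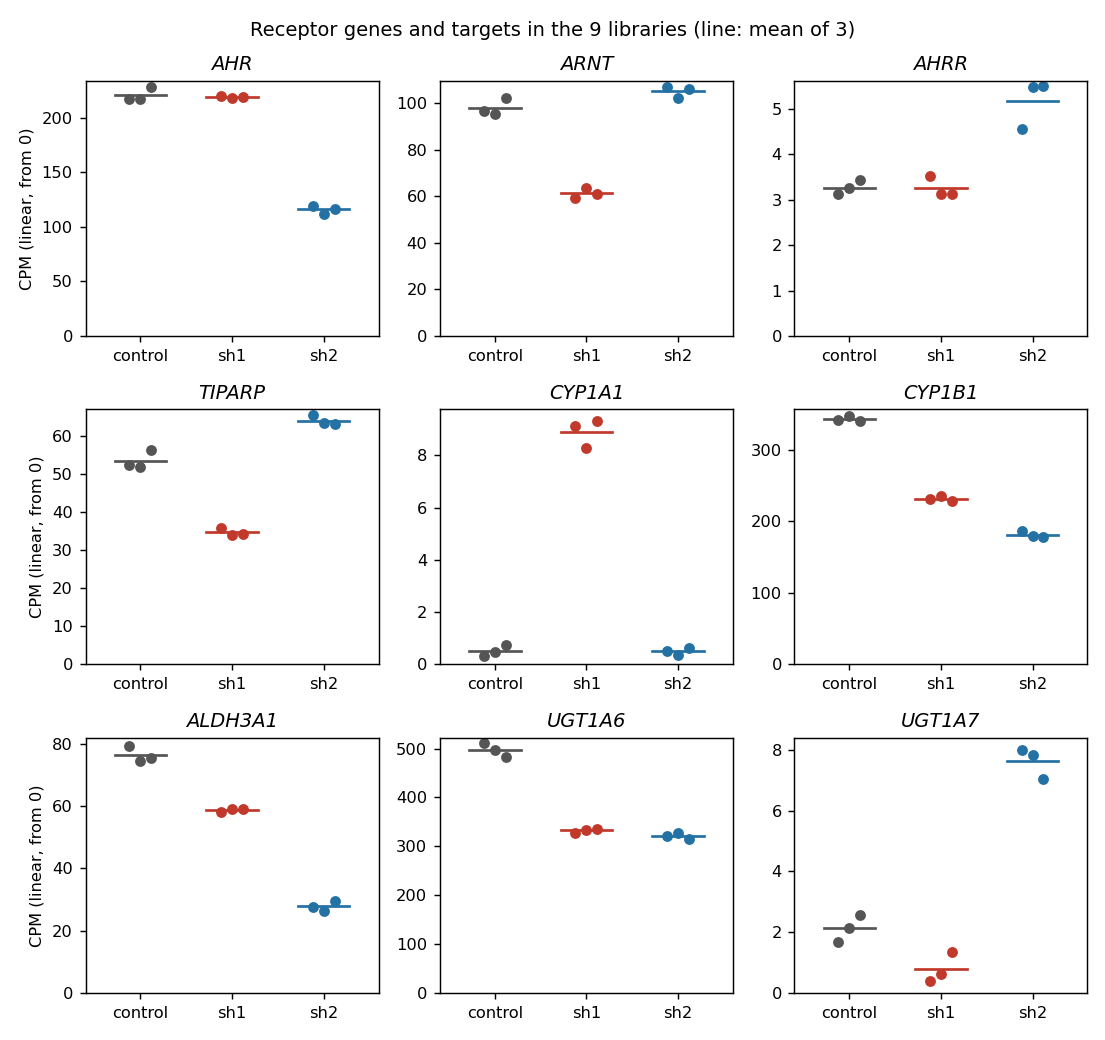
CPM of the 9 genes (vertical axis, linear from 0) in the 3 libraries each of control, sh1 and sh2 (points), with the group mean as a line. CYP1A1 is the panel where sh1 stands far above the others (8.26 to 9.30 CPM against at most 0.725), while AHR, CYP1B1 and ALDH3A1 are lowest with sh2 and ARNT, TIPARP and UGT1A7 are lowest with sh1.

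The rise was not shared by the other members. Against control, 0 of the 8 members other than CYP1A1 rose with sh1, 6 fell and 2 did not pass the test, with a median log2 change of -0.57. In edgeR 0 also rose at an unadjusted p below 0.05, and in DESeq2 0 rose at an adjusted p below 0.05. In the same contrast 69.3% of all genes tested were called, 34.7% higher and 34.6% lower, around a median of 0.01; since this contrast gave the choice of members, nothing is read from the members' share. With sh2, 4 of the 8 rose and 4 fell (median -0.27), where 68.5% of all genes were called, 34.2% higher and 34.3% lower, around a median of 0.00. Between the hairpins 3 members were higher with sh1, 4 were lower and 1 did not pass (median -0.31), where 69.8% of all genes were called, 34.2% higher and 35.6% lower. With such a background a call by itself says little about a gene, and sizes and levels are given below. The counts in lists of further genes below stand against these same shares of all genes. The sh1 and sh2 contrasts share their control libraries.

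**Figure D2:**
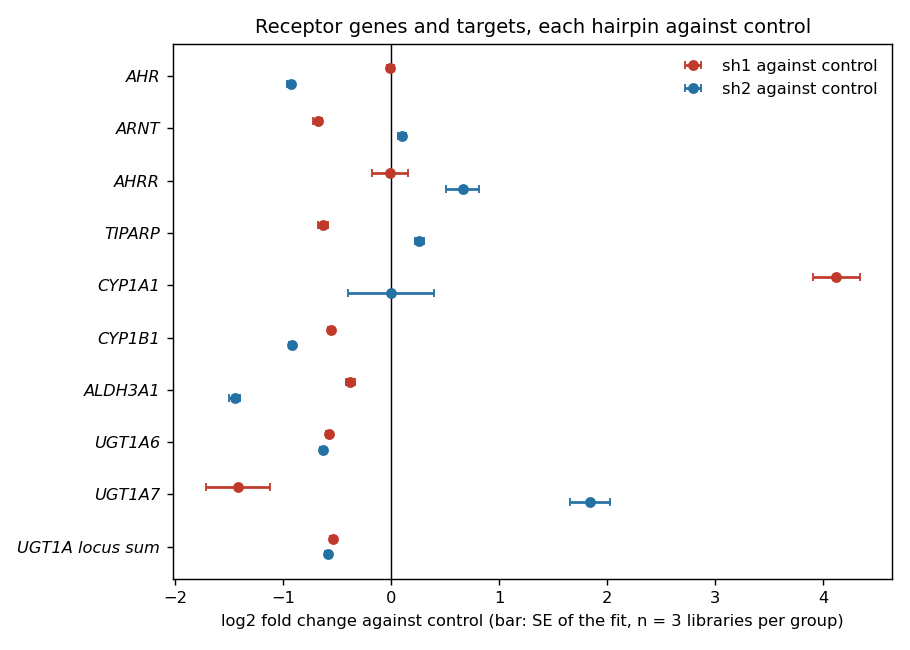
Log2 fold change against control (horizontal axis) with sh1 (red) and sh2 (blue) for each of the 9 genes and for the sum of the UGT1A genes; bars are SEs of the edgeR fit, n = 3 libraries per group. CYP1A1 with sh1 (4.12) is the 1 point above 2, and ARNT, TIPARP and UGT1A7 were called in opposite directions with the hairpins.

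AHR (Entrez gene 196), the receptor itself, was expressed in all libraries and fell with sh2, not with sh1. Control libraries held 217, 217 and 228 CPM, sh1 libraries 220, 218 and 219 CPM, and sh2 libraries 119, 112 and 116 CPM. The sh1 values lay within the control range, and all sh2 values were far below both. The change was -0.01 ± 0.031 on the log2 scale with sh1 (adjusted p = 0.773 by edgeR's quasi-likelihood fit, corrected after Benjamini and Hochberg over all genes tested, as are all adjusted p-values below) and -0.93 ± 0.033 with sh2 (adjusted p = 8.82e-21), and the difference between hairpins was 0.92 ± 0.033 (adjusted p = 1.45e-20). The fall with sh2 was 1.91-fold. Expected counts of AHR were whole in 0 of 9 libraries, so part of its reads were shared with other genes by the estimate.

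ARNT (Entrez gene 405), the partner without which the receptor does not bind its element, fell with sh1. Its levels were 96.5, 95.4 and 102 CPM in control, 59.1, 63.3 and 61.1 CPM with sh1, and 107, 102 and 106 CPM with sh2. The sh1 libraries were separate from all others, while control and sh2 met at 102 CPM. The log2 change was -0.68 ± 0.041 with sh1 (adjusted p = 3.21e-15). With sh2 it was 0.10 ± 0.037 (adjusted p = 0.0203), a call lost in 7 of 17 alternative analyses, whose adjusted p ran from 0.00962 to 0.132; without control library 1, control library 2, sh2 library 1 or sh2 library 3 it was 0.08, 0.07, 0.08 and 0.09. Without that call, 3 and not 4 of the 8 members rose with sh2. The hairpins differed by -0.78 ± 0.040 (adjusted p = 9.98e-17).

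The other parts of the receptor complex moved mostly upward with sh2, where 34.2% of all genes tested rose and 34.3% fell. Of 7 listed genes besides AHR and ARNT, 3 rose and 2 fell with sh1 (median log2 change -0.05), and 5 rose and 0 fell with sh2 (median 0.48; also 0 lower at an unadjusted p below 0.05 in edgeR, and 0 at an adjusted p below 0.05 in DESeq2). HSP90AA1, the inducible cytosolic HSP90, went from a mean of 1656 CPM in control to 3195 CPM in sh1 and 3163 CPM in sh2, and HSP90AB1, its constitutive form, from 1866 to 2249 and 3027 CPM. CUL4B, a ubiquitin ligase scaffold that the receptor can recruit, fell by 0.67 with sh1 and rose by 0.48 with sh2 on the log2 scale, from 52.9 CPM in control to 33.3 and 73.7 CPM.

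AHRR (Entrez gene 57491), the repressor that competes with the receptor for ARNT, was low in all groups and rose with sh2 alone among the calls against control. Control libraries held 3.12, 3.26 and 3.43 CPM, sh1 libraries 3.53, 3.12 and 3.12 CPM, and sh2 libraries 4.57, 5.48 and 5.50 CPM. Control and sh1 shared a range, and every sh2 library was above it. The log2 change was -0.01 ± 0.167 with sh1 (adjusted p = 0.976) and 0.66 ± 0.150 with sh2 (adjusted p = 0.000272), and the difference between hairpins, -0.67 ± 0.151, was itself called (adjusted p = 0.000263). Its expected counts were not whole in any of the 9 libraries, so part of its reads were shared with other genes by the estimate.

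TIPARP (Entrez gene 25976), a mono-ADP-ribosyltransferase that the receptor induces and that modifies the receptor in turn, fell with sh1 and rose with sh2. Its levels were 52.5, 51.8 and 56.3 CPM in control, 35.8, 33.9 and 34.3 CPM with sh1, and 65.4, 63.3 and 63.2 CPM with sh2. The 3 groups did not overlap. The log2 changes were -0.63 ± 0.049 with sh1 (adjusted p = 1.6e-12) and 0.26 ± 0.043 with sh2 (adjusted p = 5.2e-06), with a difference between hairpins of -0.88 ± 0.047 (adjusted p = 2.22e-16). Among 10 other listed mono-ADP-ribosyltransferase and related PARP genes, 3 rose and 1 fell with sh1 (median -0.03), and 5 rose and 2 fell with sh2 (median 0.10). PARP3, named outside the rule given in the processing section, was at 16.8, 15.9 and 30.9 CPM in the control, sh1 and sh2 groups. Its rise with sh2 was 0.88 ± 0.066 (adjusted p = 5.72e-13).

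CYP1B1 (Entrez gene 1545), the CYP1 oxidase of extrahepatic tissue and the closest relative of CYP1A1 among the members, was abundant and fell with both hairpins. Control libraries held 342, 348 and 340 CPM, sh1 libraries 232, 236 and 229 CPM, and sh2 libraries 187, 180 and 178 CPM. The groups did not overlap, and the order was control, sh1, sh2. The log2 changes were -0.56 ± 0.029 with sh1 (adjusted p = 5e-17) and -0.92 ± 0.029 with sh2 (adjusted p = 5.82e-22), and the hairpins differed by 0.36 ± 0.030 (adjusted p = 8.67e-12). Even in sh1 the TPM of CYP1B1 (108 ± 1.29) was far above that of CYP1A1 (7.92 ± 0.551). CYP1A2, the neighbouring CYP1 gene that is typical of liver, was picked after its values were seen: it stood at 3.09, 3.78 and 4.15 mean CPM in the control, sh1 and sh2 groups, not called with sh1 (0.29 ± 0.185, adjusted p = 0.171), and its call with sh2 (0.42 ± 0.179, adjusted p = 0.038) was lost in 6 of 17 alternatives, whose adjusted p ran from 0.0107 to 0.287. Those 6 include the fits without control library 1 (0.39), without control library 2 (0.28) and without sh2 library 2 (0.24), and without control library 3 its change with sh1 was called (0.47). Its expected counts were whole in 0 of 9 libraries, whereas those of CYP1A1 and CYP1B1 were whole in 9 of 9.

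ALDH3A1 (Entrez gene 218), an aldehyde dehydrogenase of surface epithelia that oxidises aromatic and lipid aldehydes, also fell with both. Its levels were 79.3, 74.5 and 75.4 CPM in control, 58.0, 59.2 and 59.1 CPM with sh1, and 27.7, 26.3 and 29.7 CPM with sh2. No library of one group reached the range of another. The fall was small with sh1 (-0.38 ± 0.043, adjusted p = 3.67e-09) and 2.74-fold with sh2 (-1.45 ± 0.048, adjusted p = 1.97e-21), and the difference between hairpins was 1.07 ± 0.051 (adjusted p = 1.16e-17). Of 9 tested other aldehyde dehydrogenase genes, 1 rose and 6 fell with sh1 (median -0.39), and 2 rose and 6 fell with sh2 (median -0.44). ALDH2, the mitochondrial enzyme that clears acetaldehyde, went from a control mean of 205 CPM to 86.4 CPM in sh1 and 80.7 CPM in sh2, and ALDH1A3, which makes retinoic acid, from 569 to 434 and 240 CPM.

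ALDH3A1 is also a target of NRF2, the regulator of antioxidant genes, and most genes on the list of NRF2 targets fell with each hairpin. A part of NRF2 in the change of ALDH3A1 was not tested. Without ALDH3A1, 4 of 16 rose and 10 fell with sh1 (median -0.48), and 4 rose and 10 fell with sh2 (median -0.29). The share of all genes tested that fell was 34.6% with sh1 and 34.3% with sh2. SLC7A11, the cystine transporter, was at 362, 86.9 and 69.1 CPM in the control, sh1 and sh2 groups. GCLM, the modifier subunit of the first enzyme of glutathione synthesis, was at 245, 67.6 and 114 CPM. HMOX1, haem oxygenase, lay between 24.5 and 25.5 CPM in control, at most at 26.9 CPM with sh1, and 66.1 and 69.6 CPM with sh2, a rise of 1.44 ± 0.049 with sh2 (adjusted p = 2.77e-21) and 0.06 ± 0.059 with sh1 (adjusted p = 0.339).

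The UGT1A genes come from 1 locus, where each gene has a first exon of its own joined to the same later exons. The junction between the first exon and the shared part is shown for UGT1A6 and UGT1A7 because it shows which bases can tell these genes apart: lower case is the end of the first exon and capitals the start of the shared exons, from the transcripts UGT1A6-201 and UGT1A7-201 of GENCODE on GRCh38.
UGT1A6: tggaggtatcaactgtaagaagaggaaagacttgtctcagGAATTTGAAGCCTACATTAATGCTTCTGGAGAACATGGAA
UGT1A7: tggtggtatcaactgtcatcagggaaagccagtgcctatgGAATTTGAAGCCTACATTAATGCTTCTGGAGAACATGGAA
Of the 40 bases before the junction 26 are the same in both, and the transcripts are identical for 1478 bases after it. The coding part of the first exon spans 861 bases in UGT1A6 and 855 in UGT1A7, against 735 shared coding bases in both. A read that lies wholly in the shared exons fits every gene of the locus, so the split of reads between the genes is an estimate: expected counts of UGT1A6 and UGT1A7 were whole in 0 of 9 libraries. The sum over the locus does not depend on this split.

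UGT1A6 (Entrez gene 54578), which conjugates planar phenols, held 93.0% to 96.6% of the counts of the locus and fell to about the same level with both hairpins. Control libraries held 512, 498 and 483 CPM, sh1 libraries 328, 334 and 336 CPM, and sh2 libraries 321, 328 and 315 CPM. Control was apart from both hairpins, which met at 328 CPM. The log2 changes were -0.58 ± 0.028 with sh1 (adjusted p = 1.6e-17) and -0.63 ± 0.028 with sh2 (adjusted p = 2.54e-18). The difference between hairpins was 0.05 ± 0.029 (adjusted p = 0.127), and it was called in both analyses of log2 FPKM (0.10, adjusted p = 0.0108). The locus sum gave -0.54 ± 0.028 with sh1 (adjusted p = 5.9e-17), -0.59 ± 0.028 with sh2 (adjusted p = 9.51e-18) and 0.05 ± 0.028 between them (adjusted p = 0.154).

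UGT1A7 (Entrez gene 54577), an enzyme of the upper digestive tract rather than the liver, was a minor gene of the locus whose estimate fell with sh1 and rose with sh2. Its expected counts were 25.59, 31.84 and 38.97 in control, 5.75, 8.63 and 20.23 with sh1, and 128.06, 125.91 and 109.82 with sh2, which is 1.69, 2.13 and 2.57 CPM, 0.407, 0.610 and 1.36 CPM, and 8.01, 7.84 and 7.03 CPM. The groups did not overlap, but sh1 library 3 stood above its fellows. The log2 changes were -1.42 ± 0.299 with sh1 (adjusted p = 0.000112) and 1.84 ± 0.184 with sh2 (adjusted p = 3.6e-10), and the hairpins differed by -3.26 ± 0.229 (adjusted p = 1.42e-13). Without sh1 library 3 the changes were -2.05 with sh1 and -3.88 between hairpins, and on log2(FPKM + 1), which understates changes of low genes, they were -0.52 and -1.68. Its share of the locus was 0.314% to 0.510% in control, 0.112% to 0.381% with sh1 and 2.08% to 2.32% with sh2, so the locus sum hardly carries its change.

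The remaining genes of the locus were low. UGT1A3 was at 4.81, 3.79 and 4.55 CPM in control, 9.91, 9.41 and 9.91 CPM with sh1, and 5.32, 3.98 and 3.26 CPM with sh2, a rise of 1.15 ± 0.136 with sh1 (adjusted p = 1.14e-08) and a value of -0.07 ± 0.159 with sh2 (adjusted p = 0.73). UGT1A5 rose by 0.84 ± 0.338 with sh1 (adjusted p = 0.0289) from a mean of 0.769 CPM, a call lost in 5 of its 14 alternatives, among them the fits without control library 1 (0.62), control library 2 (0.81), sh1 library 1 (0.70) and sh1 library 2 (0.62). UGT1A1, the bilirubin-conjugating enzyme, was at 11.1, 9.56 and 9.61 mean CPM and not called, though its change with sh1 was called without control library 1 (-0.29) or sh1 library 3 (-0.32), and its change with sh2 without control library 1 (-0.29). UGT1A9 and UGT1A10 were listed at 0 in all 9 libraries.

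**Figure D3:**
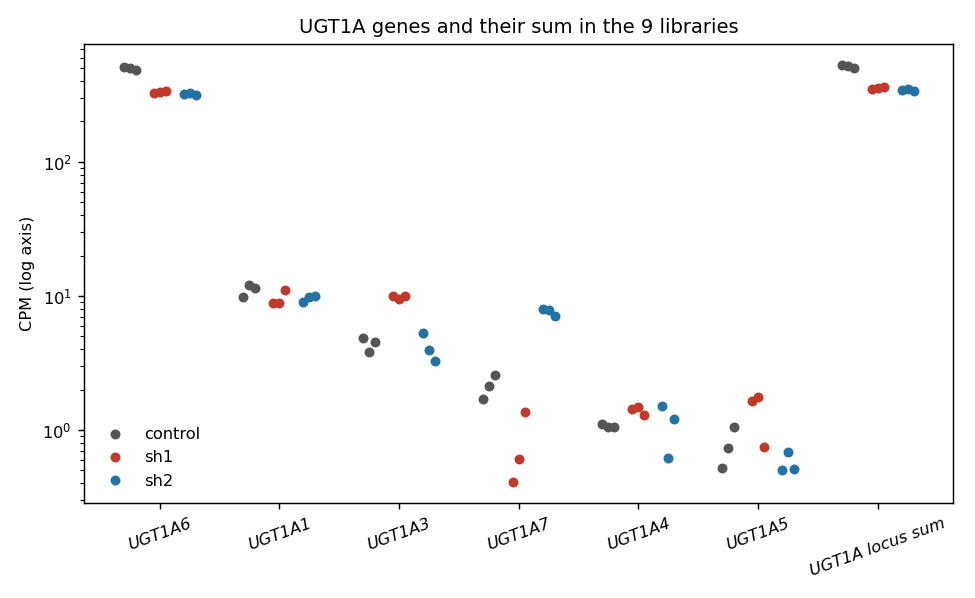
CPM (vertical axis, logarithmic) of the 6 tested UGT1A genes and of the sum of the locus in each library of control (grey), sh1 (red) and sh2 (blue). UGT1A6 and the sum fell alike with both hairpins, UGT1A3 is higher with sh1 (9.41 to 9.91 CPM), and UGT1A7 runs from 0.407 CPM in an sh1 library to 8.01 CPM in an sh2 library.

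Per gene length, UGT1A6 was the most abundant member in every group, with 674 ± 14.9 TPM in control, 450 ± 2.95 in sh1 and 416 ± 11.0 in sh2 (SD, n = 3). In control it was followed by CYP1B1 (165 TPM), ALDH3A1 (110), AHR (87.3), ARNT (49.5), TIPARP (35.0), UGT1A7 (2.27), AHRR (1.44) and CYP1A1 (0.483), and no neighbours in that order overlapped. With sh1, AHR (83.8) and ALDH3A1 (82.3) overlapped, as did AHRR (1.38) and UGT1A7 (0.810), and CYP1A1 moved from last place to above both of the latter. With sh2, ARNT (50.6) passed AHR (43.7), TIPARP (39.7) and ALDH3A1 (38.2) overlapped, and CYP1A1 was last at 0.460 TPM.

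Most of the further receptor targets listed outside the 9 genes fell with each hairpin. This list was chosen with earlier results of these data known, so its counts describe the listed genes and not receptor targets at large. Of 18 such genes listed from textbook knowledge 17 were tested. With sh1, 3 rose and 12 fell (median log2 change -0.77), where 34.7% of all genes rose and 34.6% fell. With sh2, 2 rose and 12 fell (median -0.58), where 34.2% of all genes rose and 34.3% fell. Between hairpins, 5 were higher and 9 lower with sh1 (median -0.19), where 34.2% of all genes were higher and 35.6% lower. The largest falls were those of EREG, an EGF receptor ligand, and IL1B, an inflammatory cytokine. EREG was at 88.2, 92.1 and 91.4 CPM in control, 7.26, 8.74 and 7.33 CPM with sh1, and 27.8, 29.9 and 28.1 CPM with sh2, and IL1B went from a mean of 113 CPM to 11.1 and 37.6 CPM. PTGS2, the inducible prostaglandin synthase, went from 129 to 33.7 and 44.3 CPM, TGFA, another EGF receptor ligand, from 37.2 to 13.2 and 29.8 CPM, and CYP2S1, an extrahepatic oxidase, from 84.9 to 35.9 and 37.1 CPM. All 5 were called lower with both hairpins, and many of these genes answer to other pathways as well.

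The 3 listed targets that rose with sh1 did so by far less than CYP1A1, which was chosen for its rise. Genes outside this list rose by more than these 3, among them ABCG2 (1.53 ± 0.106) and UGT1A3 (1.15 ± 0.136). CCNG2, a cyclin of growth-arrested cells, was at 18.6, 15.6 and 17.3 CPM in control, 30.0, 30.6 and 29.1 CPM with sh1, and 14.1, 13.4 and 12.8 CPM with sh2, a rise of 0.80 ± 0.068 (adjusted p = 1.08e-11) and a fall of 0.35 (-0.35 ± 0.079, adjusted p = 0.000221). VAV3, a guanine nucleotide exchange factor, was at 47.8, 80.3 and 49.2 mean CPM, a rise of 0.75 ± 0.041 with sh1 (adjusted p = 4.23e-16) and 0.04 ± 0.045 with sh2 (adjusted p = 0.419). NQO1, a quinone reductase that NRF2 also drives and that stands on both lists, was at 414, 440 and 377 CPM, a rise of 0.09 ± 0.029 with sh1 (adjusted p = 0.00719; 0.06 and no call without sh1 library 2) and a fall with sh2 (-0.13 ± 0.029, adjusted p = 0.000143). NFE2L2, the gene of NRF2, fell with both, from 320 to 187 and 214 CPM.

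**Figure D4:**
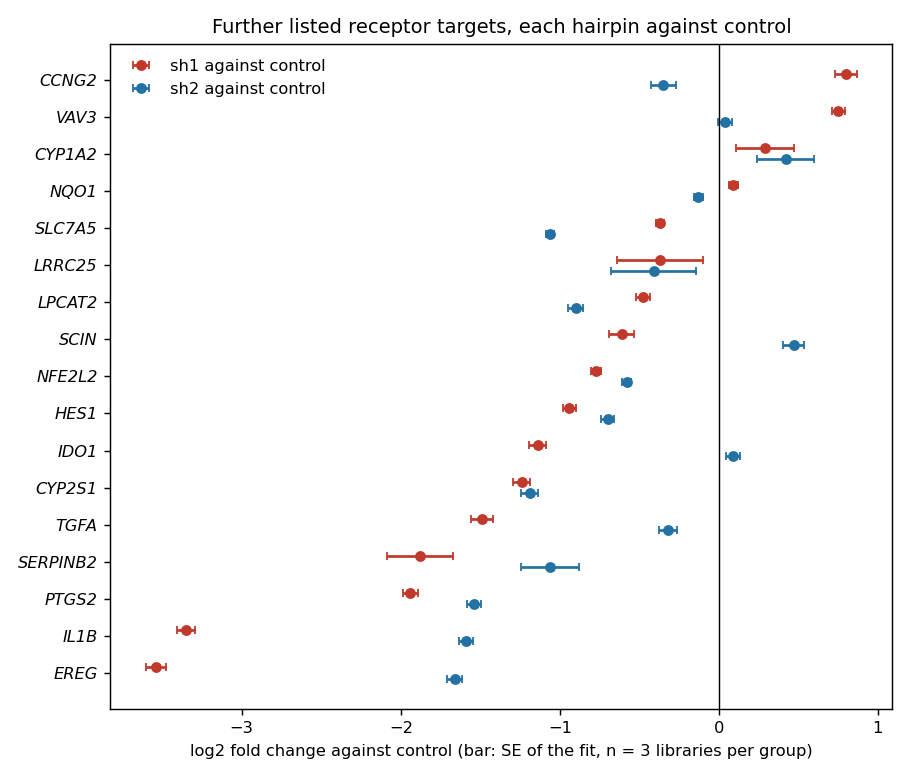
Log2 fold change against control (horizontal axis) with sh1 (red) and sh2 (blue) for the 17 tested genes listed as further receptor targets, ordered by the sh1 value; bars are SEs of the edgeR fit, n = 3 libraries per group. Among the genes drawn, the highest sh1 value is 0.80 (CCNG2) and the lowest -3.54 (EREG). CYP1A1, not drawn and chosen for its rise, was at 4.12, and ABCG2, not on this list, was at 1.53.

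Enzymes that make or use the receptor's tryptophan-derived ligands moved in both directions. Of 10 tested genes among 14 listed, 4 rose and 2 fell with sh1 (median 0.19), and 5 rose and 4 fell with sh2 (median 0.13). IDO1, which opens the tryptophan ring and is also on the target list, was at 49.4, 48.0 and 46.6 CPM in control, 21.8, 21.3 and 22.5 CPM with sh1, and 52.7, 50.7 and 50.1 CPM with sh2, a fall with sh1 of -1.14 ± 0.054 (adjusted p = 9.92e-18). KMO, which consumes kynurenine, rose from a mean of 6.08 CPM to 16.0 CPM with sh1 and 9.49 CPM with sh2. IL4I1, an amino acid oxidase that yields receptor ligands from tryptophan, rose from 1.12 to 2.01 and 3.67 CPM. TDO2, the other ring-opening enzyme, also named outside the rule, was at 1.29, 1.58 and 2.58 CPM. It was called with sh2 (0.99 ± 0.236, adjusted p = 0.00048) but not with sh1 (0.29 ± 0.264, adjusted p = 0.338).

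Among the bHLH-PAS relatives of the receptor, 0 of 12 tested genes rose and 6 fell with sh1 (median -0.27). With sh1, 0 were also higher at an unadjusted p below 0.05 in edgeR, and 0 at an adjusted p below 0.05 in DESeq2. With sh2, 1 rose and 6 fell (median -0.28). All genes tested gave 34.7% higher and 34.6% lower with sh1, and 34.2% and 34.3% with sh2. HIF1A, the hypoxia factor that also pairs with ARNT, fell like ARNT with sh1 and not with sh2: 789, 459 and 773 CPM in the control, sh1 and sh2 groups, with a difference between hairpins of -0.75 ± 0.026 (adjusted p = 8.3e-21). EPAS1, its sister factor, was lower with sh2, as was AHR, at 327, 318 and 161 CPM, with a difference between hairpins of 0.98 ± 0.030 (adjusted p = 2.69e-22). PER1, a clock gene, fell with both, from 27.8 to 11.0 and 6.06 CPM.

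Other genes of drug metabolism showed no common direction with sh1, and with sh2 more fell than rose. Of 23 tested among 26 listed, 9 rose and 9 fell with sh1 (median -0.12), and 6 rose and 12 fell with sh2 (median -0.18). With sh2, 34.2% of all genes tested rose and 34.3% fell. CYP2B6, an oxidase usually driven by other xenobiotic receptors, was higher with sh1 and lower with sh2, with 30.5, 31.6 and 32.2 CPM in control, 49.8, 48.8 and 48.7 CPM with sh1, and 8.01, 7.34 and 8.18 CPM with sh2. It rose by 0.64 ± 0.050 with sh1 (adjusted p = 1.47e-12) and fell by 2.00 with sh2 (SE 0.072, adjusted p = 1.24e-20). ABCG2, an efflux pump that the receptor can induce and that was not on the list of further targets, rose with both (1.53 ± 0.106 with sh1, adjusted p = 9.52e-14, and 1.14 ± 0.111 with sh2, adjusted p = 2.15e-10), from a mean of 5.44 CPM to 15.7 CPM with sh1 and to between 11.6 and 12.4 CPM with sh2. POR, which passes electrons to the CYP enzymes, was at 89.4, 119 and 79.1 CPM.

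Likeness to the CYP1A1 profile was measured by Euclidean distance of log2 CPM centred on each gene's mean. The sh1 rise by which CYP1A1 was chosen dominates this distance, so genes without such a rise lie far off by construction. Among tested genes outside the UGT1A locus, those whose profile over the 9 libraries lay nearest to that of CYP1A1 were not the members. They were LRRC55 (distance 1.61 log2 units, Pearson r 0.958), IGFBP5 (1.84, r 0.972), S100A7 (1.84, r 0.953), KLF2 (2.27, r 0.956), XCR1 (2.31, r 0.915) and MSMB (2.38, r 0.960), all chosen for their likeness and given as descriptions. IGFBP5, a binding protein of insulin-like growth factors, was at 3.77, 23.9 and 2.79 mean CPM in the control, sh1 and sh2 groups, S100A7, psoriasin, at 2.08, 23.5 and 3.33 CPM, and KLF2, a zinc finger factor, at 1.12, 8.64 and 1.76 CPM. LRRC55 and XCR1 had libraries at 0 outside sh1, and LRRC55, XCR1 and MSMB had means of at most 0.358 CPM in control and sh2. The members lay at distances of 5.01 (AHR) to 9.06 (UGT1A7) from CYP1A1, with r from -0.968 (ARNT) and -0.934 (TIPARP) to 0.488 (AHR), over 9 libraries that share 3 samples.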

How the data were processed

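RNA of 3 samples was deposited as 9 gene tables, 3 per sample. Per the file headers, expected counts, TPM and FPKM are listed per Entrez gene. RSEM 1.2.12, HISAT2 2.0.4, DESeq2 1.4.5, Bowtie2 2.2.5 and hg19 appear in the submitters' processing notes, without the role of each. The deposited expected counts are estimates, whole to within 1e-06 for 70.0% to 70.4% of genes in a library. Expected counts were rounded and tested with edgeR 4.0.16 in R 4.3.3: filterByExpr, TMM scaling and 1 quasi-likelihood fit of all 9 libraries with group as the only term. A call needed an adjusted p below 0.05 (Benjamini-Hochberg, 13580 genes). Values are mean ± SD, and log2 changes ± SE, taken as the size of the change over the root of F. edgeR's biological coefficient of variation, the spread between tables beyond counting noise as 1 value for all genes, was 2.33%. TPM values deposited by the authors served to order genes within a group, and FPKM values deposited by the authors entered 2 limma 3.58.1 fits on log2(FPKM + 1) and log2(FPKM + 0.1), for genes whose mean reached 1. DESeq2 1.42.0 was another alternative, as were total count scaling, no filter, leaving out each library and a sum over each UGT1A locus or sample. The script was tested on simulated data. The 9 members and all lists were chosen with earlier results of these data known. Every member is named. Of a list, genes changed by at least 1 log2 unit in any contrast and at most 4 more by CPM may be named, and the 6 genes nearest to CYP1A1 outside the UGT1A locus. CYP1A2, PARP3 and TDO2 meet no part of this rule and were named outside it. Symbols came from a RefSeq table, used for names only, for 19223 of 19266 genes. The only coordinates printed are those of the RefSeq promoter windows on GRCh38.p14, which is not the hg19 of the files. The use of strand in counting was not given in the sources, and overlapping and antisense genes are therefore uncertain.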

Additional observations from a re-analysis of the deposited data

Results flagged for a closer look

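ARNT, TIPARP and UGT1A7 were picked out because their calls against control had opposite signs with the 2 hairpins and the difference between hairpins was tested and called (edgeR's quasi-likelihood test, adjusted p below 0.05). Expressed as sh1 minus sh2 on the log2 scale, the difference was -0.78 for ARNT, -0.88 for TIPARP and -3.26 for UGT1A7. For ARNT the sign of the sh2 change rests on a call of 0.10 that 7 of 17 alternatives lost, while for TIPARP and UGT1A7 both calls were kept in every alternative that was run with a test. UGT1A7 is a share of at most 2.32% of a locus whose reads are split by an estimate. No group has enough libraries for a test of single outlying libraries.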

How the results depend on the processing

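The count of called members kept within 1.5 times of its value in 48 of 48 alternatives. For the members, 480 single results were kept, 7 lost their call (all ARNT with sh2, 0.07 to 0.09), 4 gained one and 4 moved. Of the results called in either fit, 0 changed sign. Kept means the same side of the threshold or, without a test, a shift small against the SE. Uncalled results could change sign and still count as kept, as CYP1A1 with sh2 (-0.25 to 0.34) did. For the other named genes 3133 were kept, 30 lost and 8 gained. The sum of the UGT1A locus, sh1 against sh2, was 0.05 and not called in edgeR, and was called on log2(FPKM + 1) and log2(FPKM + 0.1) (0.09, adjusted p = 0.013 in both); UGT1A6 did the same. CYP1A1 with sh1 was 1.85 against control on log2(FPKM + 1) and 3.57 on log2(FPKM + 0.1), and 1.85 and 3.56 against sh2, where a pseudocount shrinks low genes; without single libraries it ran from 3.88 to 4.47. AHRR, with a mean below 1 FPKM, has no value in those fits. Table numbers, which stand in the file names alone, do not pair the samples (correlation of deviations -0.073 to 0.099 for equal numbers); with the table number as a replicate block, 6, 8 and 7 of 8 members were called in the 3 contrasts, as without it. With the tables of each sample summed there is 1 sample per group and no test. The depth of 14660821 to 16092417 counts limits CYP1A1 outside sh1, at 5 to 11 counts per library, and UGT1A7 with sh1.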
